A study of Medicago truncatula with 24 samples.

Results

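The persistent H3K27me3 regions are stretches of the Medicago truncatula genome in which peaks of this histone mark were called in nearly every embryo sample of the study. They were found by joining the peaks of all 8 H3K27me3 peak lists on chromosomes 1 to 8 wherever peaks overlapped or touched, and by keeping each joined region that held a peak of 6 or more of the 8 lists. This gave 314 of 21666 regions. Of these, 126 held a peak of 6 lists, 82 of 7 lists and 106 of all 8 lists. The peak calls of the 8 lists therefore chose the regions, and every H3K27me3 value below is a description with no test.

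Embryos of the A17 line were dissected from seeds of plants kept, from flowering on, at 26°C by day and 24°C by night or at 20°C by day and 18°C by night. Stages S1 and S2 lie before and after the seed gains desiccation tolerance, S3 at the onset of its gain of longevity and S4 after it. At 26°C these were sampled on day 14, 17, 22 and 28 from pollination, and at 20°C on day 17, 26, 36 and 44. Chromatin immunoprecipitation followed by sequencing was done for H3K27me3 at all 4 stages and for H3ac, the acetylated form of histone H3, at S1 and S2. Each condition had 1 immunoprecipitated (IP) library and 1 INPUT library made without antibody, 24 libraries in all, from chromatin of many pooled embryos. All libraries carry the same label, which names seeds of more than 1 year, so none can be assigned to a year. No condition had a replicate here, so differences between conditions carry no replicate error. As the lists also chose the regions, no test was made between temperatures over the stages. Stage differs from age in a different way at each temperature. The lists hold 862 to 6448 peaks for H3K27me3 and 530 to 4376 for H3ac on these chromosomes, and give no read totals.

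H3K27me3 is histone H3 carrying 3 methyl groups on lysine 27 of its tail. In plants it is written by Polycomb repressive complex 2, is bound by factors that keep genes silent, and is known for holding developmental genes off in tissues and at stages where they are not used. Seed maturation genes are among the targets known from Arabidopsis. Acetylation of histone H3 is in general found at active genes. An enrichment of both marks in one sample may come from different cells, different copies of a repeat or the same chromatin, and these cannot be told apart in whole embryos.

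The persistent regions were long. They spanned 0.989 to 141 kb with a median of 12.6 kb and quartiles of 8.45 and 17.9 kb, against a median of 0.449 kb and a longest region of 27.5 kb among the other 21352 regions. They covered 4.74 Mb in all, which is 17.4% of the length of all joined regions and 1.11% of the chromosomes. A long region has more room to meet peaks of several lists, and joining can chain peaks that do not lie on top of each other. A single base under peaks of 6 or more lists was present in 211 persistent regions (67.2%), with a median shared stretch of 3.24 kb, or 28.0% of the region. The other 103 had no such base. The regions held a median of 9 peaks over all lists and at most 33, and 84 of them had no more than 1 peak in any list.

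**Figure D1:**
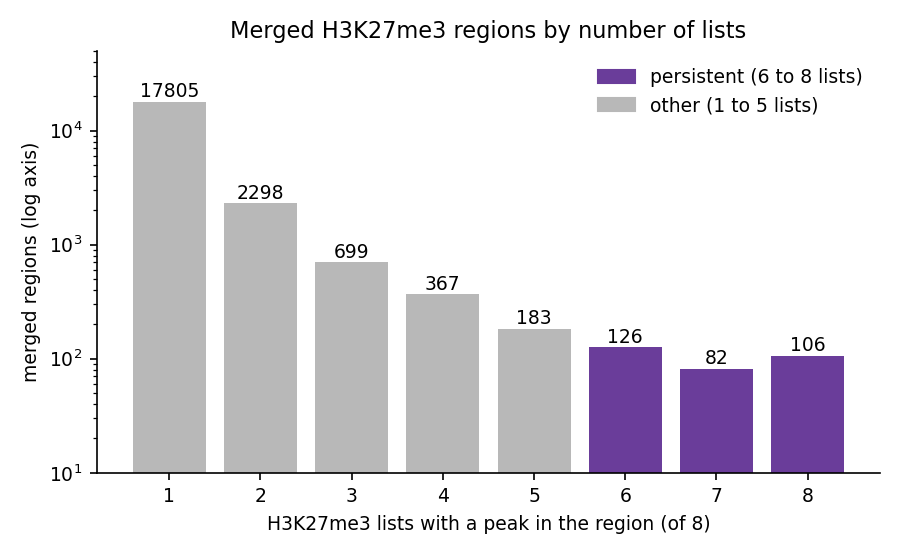
Number of joined H3K27me3 regions (log axis) by the number of peak lists, of 8, with a peak in the region; purple bars are the persistent regions and grey bars the others. Most regions, 17805, had a peak in 1 list only, and 106 had one in all 8.

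The number of regions dropped with each added list, to 183 in 5 lists, 126 in 6 lists and 82 in 7 lists, and was higher again at 106 in 8 lists. On both sides of the limit, regions were much alike in their lowest fold enrichment, which the choice did not use, but differed in length. Persistent regions in 6 lists had a median lowest fold enrichment of 2.39 over the lists with a peak and a median length of 10.9 kb, whereas regions in 5 lists had 2.45 and 6.78 kb. The 3 weakest persistent regions in 6 lists were chr3:3871044-3872935, chr7:6616460-6618673 and chr7:17549340-17559700, with lowest fold enrichments of 1.31, 1.91 and 1.96. The 3 strongest regions in 5 lists, which just missed the limit, were chr7:47767710-47782640, chr8:8502541-8521119 and chr4:14650675-14653501, with lowest fold enrichments of 3.91, 3.56 and 3.52. All 3 of these had no peak at S4 at 26°C and none at S3 or S4 at 20°C. Positions are those of the MtrunA17r5.0 assembly.

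Where a persistent region lacked a peak, it was most often at the first stage. Among the 208 persistent regions in 6 or 7 lists, the S1 list lacked 70 at 26°C and 84 at 20°C. The S2, S3 and S4 lists lacked 30, 8 and 11 at 26°C, and 22, 44 and 65 at 20°C. Thus at 26°C few were missing at S3 and S4, and at 20°C many were missing at S4 as well as at S1. No peak at S1 at either temperature was the case for 23 regions, of which 18 held no gene and 2 a protein-coding gene. No peak at S3 and S4 at 20°C was the case for 17 regions, of which 8 held no gene and 7 a protein-coding gene. Over all persistent regions, 66.9% held no gene and 22.6% a protein-coding gene, beside 64.2% and 32.3% of all joined regions. An H3ac peak, which the choice of regions did not use, was present in 19 of the 23 (82.6%) and in 4 of the 17 (23.5%). It was present in 65.9% of all persistent regions and in 7.79% of all joined regions.

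The length under peaks varied less inside the persistent regions than elsewhere. At 26°C, 2.14, 2.64, 2.91 and 3.15 Mb of the peaks of S1 to S4 lay in persistent regions, and 5.94, 5.36, 4.22 and 3.77 Mb lay outside. At 20°C, 1.87, 2.76, 2.30 and 2.47 Mb lay in persistent regions, and 5.74, 1.55, 0.957 and 0.944 Mb lay outside. As a share of all peak bases, persistent regions held 26.4, 33.0, 40.8 and 45.5% at S1 to S4 at 26°C and 24.6, 64.0, 70.6 and 72.4% at 20°C. Inside the regions, the log2 ratio of the peak length of 26°C to that of 20°C was 0.19, −0.06, 0.34 and 0.35 at S1 to S4, whereas outside it was 0.05, 1.79, 2.14 and 2.00. Set over S1, the length at S4 had a log2 ratio of 0.56 inside and −0.66 outside at 26°C, and of 0.40 inside and −2.61 outside at 20°C. A region that had to hold a peak of 6 lists could not lose its peaks in most lists. The number of peaks in a list moves with these shares (4390 peaks at S4 and 5611 at S1 at 26°C, 862 at S4 and 4648 at S1 at 20°C). With the 862 peaks of lowest p-value from every list, 49 regions met the rule. They held 36.9, 44.7, 57.5 and 45.1% of the peak bases at S1 to S4 at 26°C, against 25.3, 36.3, 42.0 and 32.3% at 20°C. The share was then higher at 26°C at every stage, so the order of the temperatures at S2 to S4 turned with list length.

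**Figure D2:**
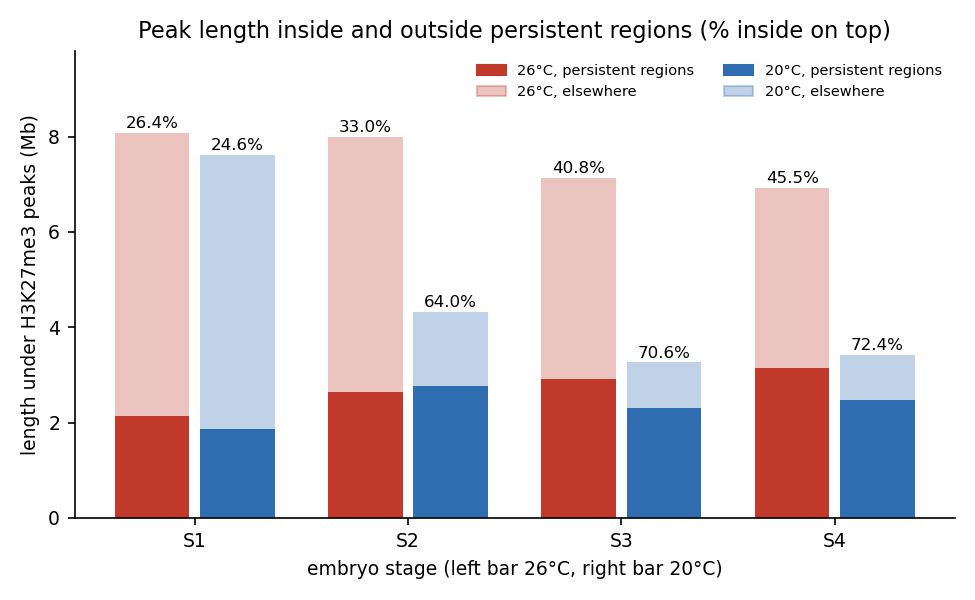
Length under H3K27me3 peaks (Mb) in each list by stage, with 26°C as the left and 20°C as the right bar; dark parts lie in persistent regions, pale parts elsewhere, and the number on top is the percentage inside. The dark parts span 1.87 to 3.15 Mb over all lists, while the pale parts span 0.944 to 5.94 Mb.

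Fold enrichment, the ratio of IP to INPUT that the authors' peak caller gave for each peak, was averaged over the peaks of a region, weighted by their length. Its median over persistent regions with a peak was 3.52, 3.57, 3.03 and 2.99 at S1 to S4 at 26°C, and 3.46, 2.72, 2.54 and 2.65 at 20°C. Over the other regions it came to 3.94, 3.93, 2.86 and 2.72 at 26°C, against 3.59, 2.55, 2.45 and 2.50 at 20°C. Persistent regions were thus below the others at S1 and, at 26°C, at S2, and above them in the remaining lists. The gaps were widest at S1 and S2 at 26°C. Their strength spread widely, with the highest value in any list at 5 or more in 105 regions, at 10 or more in 27 and at 20 or more in 14. The 100 peaks with the lowest p-value from the peak caller were also taken in each list. Of these, 28, 35, 54 and 51 lay in persistent regions at S1 to S4 at 26°C, against 35, 76, 74 and 72 at 20°C. Of all peaks of a list, 6.63, 7.64, 7.18 and 9.43% lay there at 26°C, against 7.75, 22.7, 26.9 and 36.1% at 20°C.

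The strongest of the regions with a peak in all 8 lists was chr4:19615571-19674153, 58.6 kb in which no gene is annotated. Its fold enrichment was 22.5, 23.8, 60.7 and 67.4 at S1 to S4 at 26°C, and 18.2, 58.2, 63.5 and 69.2 at S1 to S4 at 20°C. Peaks covered at least 94.1% of it in every list. The high level was reached at S3 at 26°C and already at S2 at 20°C. Its neighbour chr4:19566520-19591547, 25 kb and also without a gene, stood at 5.46, 7.93, 21.2 and 23.9 at 26°C and at 7.36, 14.1, 17.4 and 17.7 at 20°C, with the same order of stages. The nearest protein-coding gene of the first of these regions was 125 kb away, and the 1-Mb stretch around its middle held 6 protein-coding genes.

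On chromosome 1, chr1:22801825-22917239 (115 kb) held a single annotated gene, the lncRNA gene LOC120580935. Its fold enrichment was 6.86, 11.2, 29.7 and 43.8 at 26°C, against 8.93, 19.5, 25.8 and 28.8 at 20°C. S4 was its highest stage at both temperatures. On chromosome 6, chr6:24875839-24917481 (41.6 kb, no gene) had 6.09, 6.64, 10.1 and 11.3 at 26°C and 6.11, 9.25, 8.06 and 10.2 at 20°C. At S4 its peaks covered 100% of the region at 26°C and 99.1% at 20°C, against 36.9% and 40.9% at S1 at these temperatures. In these regions the values of S4 were above those of S1 at both temperatures. The same order was seen in 3 more of the longest regions, each without a gene and with a peak in all 8 lists. In chr6:20317977-20421844 (104 kb) fold enrichment was 12.0 at S4 and 3.86 at S1 at 26°C, and 13.2 at S4 and 4.74 at S1 at 20°C. In chr7:18531851-18596743 (64.9 kb) it was 9.72 at S4 and 3.95 at S1 at 26°C, and 10.9 at S4 and 4.43 at S1 at 20°C. In chr8:22134594-22197167 (62.6 kb) it was 10.9 at S4 and 3.43 at S1 at 26°C, and 10.1 at S4 and 4.90 at S1 at 20°C. S2 of 26°C lay near S1 in each, at 4.27, 5.07 and 4.00, whereas S2 of 20°C was higher, at 11.9, 10.3 and 7.04.

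**Figure D3:**
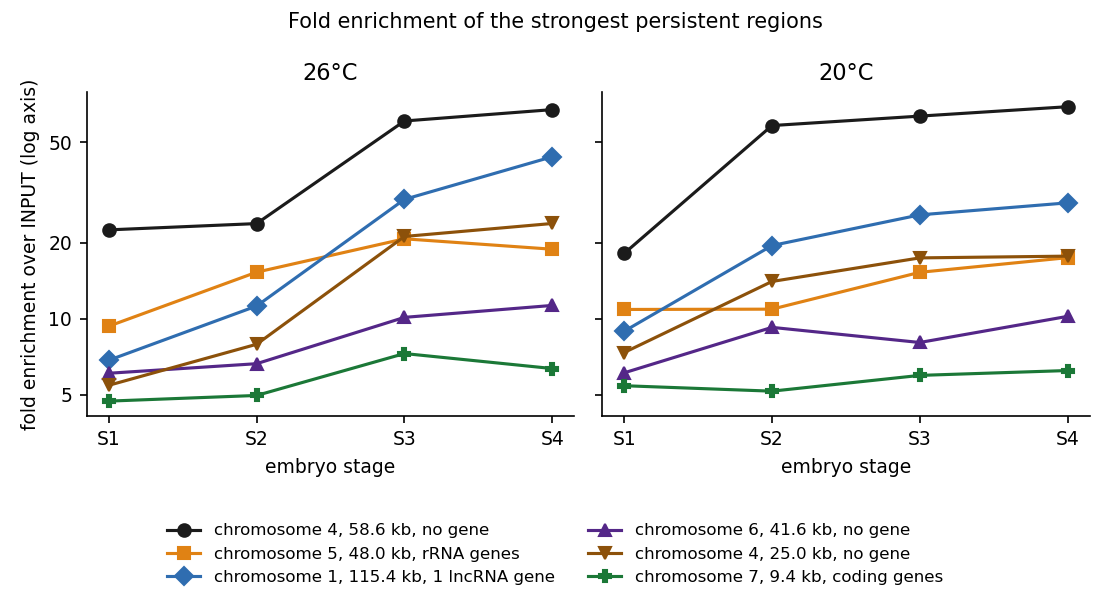
Fold enrichment over INPUT (log axis) by embryo stage in 6 persistent regions, the 5 with the highest lowest value over all 8 lists and the strongest region with protein-coding genes and no rRNA gene (green), at 26°C (left) and 20°C (right); each point is 1 library. The chromosome 4 region of 58.6 kb lies above the other regions at every stage and the green line lies between 4.72 and 7.29.

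Ribosomal RNA genes were found in 11 persistent regions, 3.50% (exact 95% binomial interval 1.76 to 6.18), beside 0.06% of all joined regions. Such intervals cover counting error only, and neighbouring regions are not independent. Persistent regions are also far longer than the others, and the rRNA share was not compared at equal length. The 11 regions held 577 of the 1407 rRNA genes annotated on the chromosomes (41.0%), and 584 lay under any joined region. Of the 577, 568 have a span of at most 130 bp. Ribosomal RNA is the RNA core of the ribosome, and its genes occur in long arrays of near-identical copies. The authors kept only reads with a single place in the genome, and how this acts on such arrays was not tested.

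The longest persistent region, chr6:20569926-20710940 (141 kb), held 459 of these genes. Its fold enrichment was 3.60, 4.17, 6.23 and 7.57 at S1 to S4 at 26°C, and 3.99, 5.23, 5.40 and 4.11 at 20°C. Peaks covered 40.2, 42.6, 99.8 and 100% of it at 26°C and 21.0, 99.6, 99.8 and 96.1% at 20°C. At both temperatures the array was marked nearly throughout at S3 and S4 and in patches at S1. The strongest was chr5:23789849-23837817 (48.0 kb), with 3 rRNA genes, among them LOC112418329 of 3362 bp, the only rRNA gene of more than 1000 bp in the table used. It had 9.36, 15.3, 20.7 and 18.9 at 26°C and 10.9, 10.9, 15.3 and 17.5 at 20°C, with at least 88.8% of its length under peaks in every list. Of the 11 regions, 8 had a peak in all 8 lists, and 5 lay within chr5:23485829-23927199.

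Transfer RNA genes, which encode the adaptors that carry amino acids to the ribosome, numbered 19 in 10 persistent regions (3.18%, exact interval 1.54 to 5.78), beside 0.143% of all joined regions. These are 19 of 746 annotated. This share too was not compared at equal length, and longer regions meet more genes. Several lay close together in one region, as did TRNAM-CAU, TRNAL-CAA and a further TRNAM-CAU in chr3:12188006-12223853, and TRNAW-CCA, TRNAP-UGG and a further TRNAW-CCA in chr4:12707338-12731990. Both regions also held pseudogenes. Of the other classes, 63 of 1562 pseudogenes (4.03%), 20 of 2561 lncRNA genes (0.781%), 12 of 971 snoRNA genes (1.24%) and 0 of 210 snRNA genes lay in persistent regions, beside 808 of all 39280 genes (2.06%). Of these 808 genes 577 were rRNA genes, so the share over all genes is mostly theirs. Among protein-coding genes the share was 112 of 31728 (0.353%). Of the 63 pseudogenes 45 lay in regions with an rRNA gene, and 35 of these, of 106 to 118 bp, lay in the longest region. None of the 10 genes with a given name rather than a locus number lay in one.

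Protein-coding genes lay in 71 persistent regions (22.6%, exact interval 18.1 to 27.6), beside 32.3% of all joined regions, and 210 persistent regions (66.9%, interval 61.4 to 72.1) held no annotated gene of any kind, beside 64.2% of all. The order of these shares depended on the peaks taken. With the same number of peaks from every list, protein-coding genes were in 46.9% of the 49 regions left (interval 32.5 to 61.7), beside 28.4% of all, and 44.9% held no gene, beside 67.8%. With a −log10 p of at least 5, protein-coding genes were in 40.6% of 64 regions (28.5 to 53.6), beside 34.2%, and 50% held no gene, beside 62.1%. In the lists as deposited, the 71 regions held 112 of the 31728 protein-coding genes. Because long regions meet more genes, regions of the same length were set side by side. Between 2 and 5 kb, 56.3% of 32 persistent regions held no gene, against 69.8% of 1121 others (exact intervals 37.7 to 73.6 and 67.1 to 72.5), and between 5 and 10 kb 73.0% of 63, against 49.4% of 498 (60.3 to 83.4 and 44.9 to 53.9). Between 10 and 20 kb, 69.9% of 153 persistent regions held no gene, against 34.3% of 309 others (exact intervals 62.0 to 77.1 and 29.0 to 39.9). At 20 kb and more, this was 57.1% of 56 persistent regions, against 10% of 20 others (intervals 43.2 to 70.3 and 1.23 to 31.7). Below 2 kb the shares were 70% of 10 persistent regions and 64.7% of 19404 others, and their intervals overlapped. The intervals were apart from 5 kb on, with more persistent regions without a gene, and overlapped in both shorter classes, with fewer of them between 2 and 5 kb.

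By the genes they held, the persistent regions fell into 11 with an rRNA gene, 65 with a protein-coding gene and no rRNA gene, 28 with genes of other kinds only and 210 without a gene. The share of a region under peaks moved with stage in different ways in these groups. In regions without a gene the median share was 74.0% at S4 and 19.2% at S1 at 26°C, and 49.2% at S4 and 12.4% at S1 at 20°C. More of the region was covered at S4 than at S1 in 165 of the 210 at 26°C and in 140 at 20°C. In the regions with a protein-coding gene the median share was 51.0% at S4 and 67.6% at S1 at 26°C, and 17.0% at S4 and 35.1% at S1 at 20°C. Here S4 exceeded S1 in 27 of 65 regions at 26°C and in 24 at 20°C. The median fold enrichment of these 65 regions was 4.21, 4.25, 3.24 and 3.13 at S1 to S4 at 26°C, and 4.27, 2.92, 2.70 and 2.96 at 20°C.

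**Figure D4:**
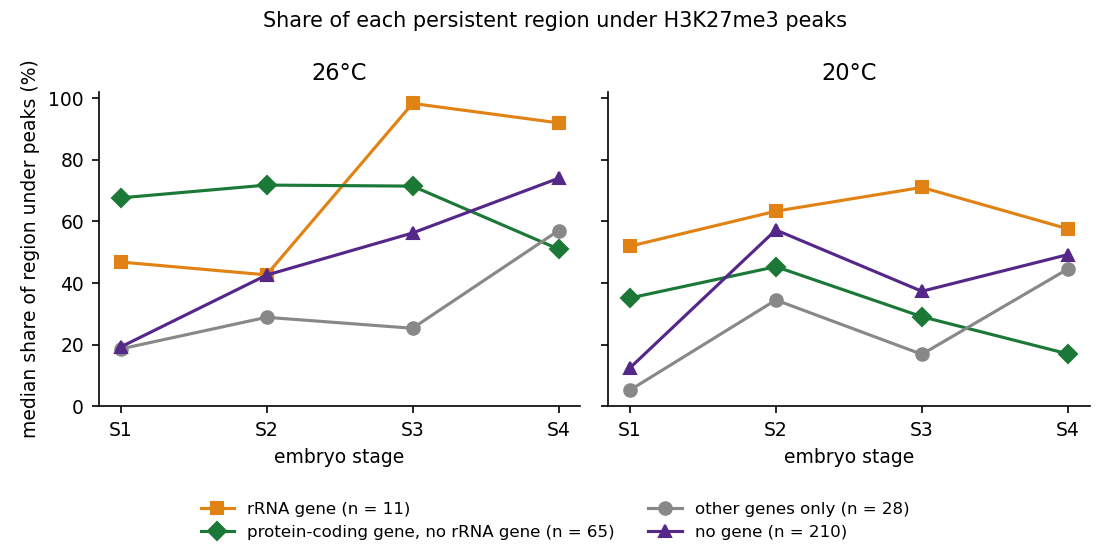
Median share of a persistent region under H3K27me3 peaks (%) by embryo stage at 26°C (left) and 20°C (right), for regions grouped by the genes they hold; each point is the median over the regions of the group in 1 library, counted as 0 where there was no peak. From S1 to S4 the line of the 210 regions without a gene ends above its start at both temperatures, at 74.0% and 49.2%, and the line of the 65 with a protein-coding gene ends below it, at 51.0% and 17.0%.

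The time of the highest fold enrichment also differed by group. Of the 65 regions with protein-coding genes, 41 had their highest value in the S1 or S2 list of 26°C, namely 18 at S1 and 23 at S2, and 14 in the S1 list of 20°C. Of the 210 without a gene, 42 and 55 had it at S1 and S2 at 26°C, 40 at S4 at 26°C and 36 at S1 at 20°C. In all 6 regions with protein-coding genes that reached 20 or more, the highest value lay at S1 or S2 at 26°C. Over all 314 persistent regions, the highest value lay at S1 at 26°C in 65 (20.7%) and at S2 at 26°C in 91 (29.0%). These lists also had the highest median fold enrichment over the regions other than the persistent ones, at 3.94 and 3.93.

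The regions with protein-coding genes named here are the 10 with the highest lowest fold enrichment. The table used gives locus numbers and no product names, so no function is given for them. Leading was chr7:53167276-53176713 (9.44 kb), which overlaps LOC11421359 and LOC11421360. It had 4.72, 4.97, 7.29 and 6.36 at S1 to S4 at 26°C, and 5.44, 5.17, 5.97 and 6.24 at 20°C, so all 8 libraries lay within a narrow band. A close neighbour, chr7:53187563-53195249 with LOC11425639 and LOC11423150, was similarly even at 3.77 to 4.86 at 26°C and 3.50 to 4.26 at 20°C. Next in the order came chr3:16862212-16901346 (39.1 kb) within the long gene LOC120579525, which was much less even, with 4.36, 6.96, 11.4 and 15.6 at 26°C and 5.04, 18.2, 16.1 and 17.2 at 20°C.

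A group of these regions stood higher at 26°C. In chr3:31820300-31830617 (LOC120579358 and LOC120579359) the values were 11.4, 13.3, 9.998 and 11.4 at S1 to S4 at 26°C, against 7.53, 5.02, 5.11 and 4.14 at 20°C, and the temperatures did not overlap. In chr4:12707338-12731990 (LOC120580077 and LOC11441954) they were 9.39, 13.2, 9.23 and 11.2 at 26°C, against 7.88, 5.54, 4.70 and 3.58 at 20°C, again without overlap. In chr3:12188006-12223853, which holds 8 protein-coding genes, they were 7.86, 8.11, 7.66 and 5.25 at 26°C, against 4.79, 3.82, 4.36 and 3.47 at 20°C. The 8 libraries of each region are single libraries of different stages, so this is an order of values and no test.

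A further group was strongest early and at 26°C. In chr2:17401387-17416184 (14.8 kb), which reaches into LOC11440646, fold enrichment was 27, 28.3, 5.81 and 4.76 at S1 to S4 at 26°C, and 4.02 and 9.01 at S1 and S2 at 20°C with no peak at S3 and S4. The region chr3:14076141-14097686 (21.5 kb) around LOC25488847 had 29.0, 29.1, 6.22 and 3.39 at 26°C, and 5.23 and 8.02 at S1 and S2 at 20°C, again with no peak later. In both, the S3 and S4 values of 26°C lay far under those of S1 and S2. The region chr4:4104326-4120151 (15.8 kb) around LOC25491440, named for its ratio between temperatures, had a peak in all 8 lists, with 61.7, 61.5, 11.9 and 4.26 at 26°C and 9.50, 12.1, 2.51 and 3.03 at 20°C. None of these 3 regions had a peak in any H3ac list. The remaining named regions were chr4:503140-523276 (LOC11423726 and LOC112416088), at 4.75 to 9.82 at 26°C and 3.76 to 4.71 at 20°C, and chr4:23931702-23946900 (LOC120579946), at 3.33 to 5.03 and 3.34 to 4.38.

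Temperature was compared at each stage over the regions with a peak in both lists. The median log2 ratio of fold enrichment, 26°C over 20°C, was 0.01, 0.36, 0.27 and 0.19 at S1 to S4 in persistent regions, beside 0.04, 0.44, 0.25 and 0.16 in all joined regions and 0.04, 0.55, 0.25 and 0.14 in the regions other than the persistent ones. At S2 the persistent regions thus had the smaller ratio. A ratio past 1.5-fold upwards was seen at S1 in 22 of 183 persistent regions (12.0%), beside 18.5% of all regions, and downwards in 16 (8.74%), beside 12.3%. At S2 it was seen upwards in 80 of 262 (30.5%), beside 38.5% of all and 47.8% of the 226 others, and downwards in 11 (4.20%), beside 2.25%. At S3 30 of 262 (11.5%) were higher, beside 13.1%, and 0 were lower, beside 0%. At S4 29 of 246 (11.8%) were higher, beside 9.27%, and 1 was lower, beside 0.442%. The sign at S1 depends on the settings, as it was kept in 9 of 16 alternatives, whereas it was kept in all 16 at S2, S3 and S4.

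Among the 106 persistent regions with a peak in every list, 33 (31.1%) were higher at 26°C at all 4 stages and 4 (3.77%) were lower at all 4. By the rule every joined region with a peak in all 8 lists is persistent, so no other regions can stand beside these counts. The median ratio over all joined regions was also positive at each stage. Over the 106 regions, the mean of the 4 log2 ratios had a median of 0.18. The highest was 1.95, for the early region around LOC25491440 on chromosome 4 described above. The lowest was −0.73, for chr8:22223710-22284087 (60.4 kb, no gene), which had 2.13, 3.42, 5.99 and 9.17 at 26°C, against 3.51, 10.9, 7.93 and 9.91 at 20°C. There the lower values at 26°C were most marked at S2.

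Between stages, S4 over S1, the median log2 ratio at 26°C was −0.16 over 234 persistent regions, beside −0.28 in all joined regions. At 20°C it was −0.31 over 177 persistent regions, beside −0.35 in all. At 26°C 24 (10.3%) were past 1.5-fold higher at S4, beside 4.09% of all regions, and 44 (18.8%) lower, beside 26.2%. At 20°C 22 (12.4%) were higher, beside 9.65%, and 37 (20.9%) lower, beside 22.8%. All 24 and all 22 regions past 1.5-fold higher at S4 among the joined regions were persistent regions. Since a region must have a peak at both stages to be counted, this count rests on the same lists as the choice. With the same number of peaks taken from every list, the medians turned positive, at 0.59 at 26°C and 0.21 at 20°C over the 49 regions left, and with a −log10 p of at least 5 they were 0.22 and 0.09 over 64.

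H3ac was not used to choose the regions. A peak of at least 1 of the 4 H3ac lists overlapped 207 of the 314 persistent regions (65.9%, exact interval 60.4 to 71.2), beside 7.79% of all joined regions and 6.94% (6.60 to 7.29) of the others. A peak of all 4 H3ac lists was present in 62 (19.7%, interval 15.5 to 24.6), beside 0.425% of all and 0.141% of the others. The share grew with the number of H3K27me3 lists, being 4.49% of regions in 1 list, 42.6% in 5, 57.1% in 6, 67.1% in 7 and 75.5% in 8. By list, H3ac peaks lay in 96 persistent regions for S2 and 123 for S1 at 26°C, and in 146 for S2 and 149 for S1 at 20°C.

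One H3ac list, that of S1 at 20°C, was far longer than the rest, with 4376 peaks against 530 to 928. Without it the overlap was 55.7% of persistent regions (interval 50.0 to 61.3), against 3.19% of the others. Without the 11 regions with rRNA genes it was 64.7%. As longer regions meet more peaks, the share was also taken by length. Between 2 and 5 kb it was 43.8% of 32 persistent regions, against 22.2% of 1121 others (intervals 26.4 to 62.3 and 19.8 to 24.8). Between 10 and 20 kb it was 67.3% of 153, against 22.3% of 309 (59.3 to 74.7 and 17.8 to 27.4), and at 20 kb and more 82.1% of 56, against 20% of 20 (69.6 to 91.1 and 5.73 to 43.7). Measured by bases, H3ac peaks covered 28.2, 29.9, 35.4 and 26.3% of the length of persistent regions in the lists of S2 at 26°C, S1 at 26°C, S2 at 20°C and S1 at 20°C, against 1.69, 2.12, 2.95 and 2.14% of the others. In every length class the persistent regions had the larger share.

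**Figure D5:**
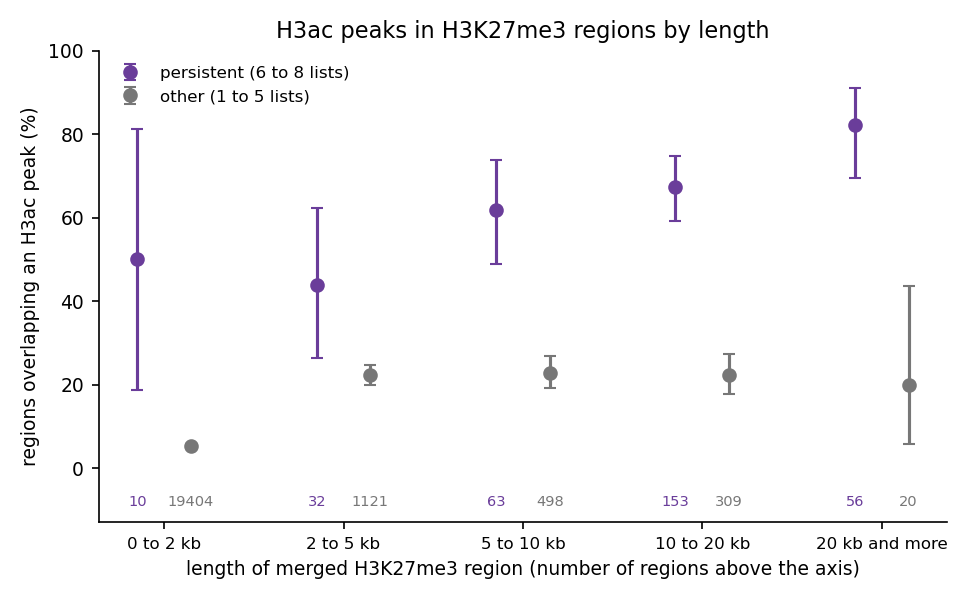
Share of joined H3K27me3 regions that overlap a peak of any of the 4 H3ac lists (%), by region length, for persistent regions (purple) and others (grey), with exact 95% binomial intervals and the number of regions above the axis. Persistent regions range from 43.8 to 82.1%, and the others from 5.39 to 22.9%.

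Seen from the other mark, persistent regions held 56.9% and 57.2% of the bases under H3ac peaks of S2 and S1 at 26°C, and 53.6% and 36.3% of those of S2 and S1 at 20°C. They make up 1.11% of the chromosomes. Among the 100 H3ac peaks with the lowest p-value in each list, 51, 59, 71 and 37 lay in them in the same order of lists. Of all peaks of these lists, 28.5, 30.5, 29.1 and 6.63% did. Within the longest regions the H3ac peaks were wide. In the rRNA array of chromosome 6 they covered 99.1% of the region in the S2 list and 68.5% in the S1 list of 26°C, and 86.1% and 85.5% in those of 20°C. The highest H3ac peak of the array had a fold enrichment of 6.17 to 7.29 over the lists. H3ac values of a region are those of its highest peak, not averages as for H3K27me3. The H3K27me3 peaks of the same samples covered 42.6% at S2 and 40.2% at S1 at 26°C, and 99.6% at S2 and 21.0% at S1 at 20°C. In all but S2 at 20°C the H3ac peaks covered more of the array. However, H3ac peaks were called narrow, with a lowest −log10 p of 2.01 to 2.07, and H3K27me3 peaks broad, with 2.74 to 3.16. The covered shares therefore do not rank the marks. In the strongest region of chromosome 4, chr4:19615571-19674153, H3ac peaks covered at least 97.5% of it in every list. The highest of them had a fold enrichment of 1.54 for S2 and 1.21 for S1 at 26°C, and 1.63 for S2 and 3.00 for S1 at 20°C.

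The pattern of H3K27me3 over stages differed with the H3ac peaks. The 62 persistent regions with a peak in all 4 H3ac lists had a median of 93.9% of their length under H3K27me3 peaks at S4 and 16.4% at S1 at 26°C, and 81.6% at S4 and 11.4% at S1 at 20°C. Of these 62, 47 held no gene and 5 a protein-coding gene. The 107 persistent regions with no H3ac peak had 46.6% at S4 and 60.4% at S1 at 26°C, and 10.6% at S4 and 39.7% at S1 at 20°C. Of these 107, 65 held no gene and 32 a protein-coding gene. H3ac was measured at S1 and S2 only, so no H3ac value stands beside the late H3K27me3 peaks.

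Regions with an rRNA gene all had an H3ac peak (11 of 11, exact interval 71.5 to 100), as did 69.0% of those without a gene (62.3 to 75.2) and 50.8% of those with a protein-coding gene and no rRNA gene (38.1 to 63.4). By the lowest fold enrichment over the lists with a peak, the strongest persistent region with no H3ac peak in any list was the even chr7:53167276-53176713. Its highest value was 7.29, against 61.7 in chr4:4104326-4120151, also without an H3ac peak. Of the 107 regions without an H3ac peak 32 held a protein-coding gene, as did 4 of the 5 strongest by that lowest value. The other one was chr2:22247965-22256732 (8.77 kb, no gene), with 4.36, 3.71, 3.84 and 5.32 at 26°C and 4.02, 5.66, 4.08 and 5.18 at 20°C.

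On the chromosomes, the persistent regions numbered 36, 40, 46, 40, 22, 51, 48 and 31 on chromosomes 1 to 8. Chromosome 6 had the largest share of its length in them, 2.16%, and the other chromosomes 0.857 to 1.31%. Cut into stretches of 1 Mb, the chromosomes gave 428 bins, of which 151 held a persistent region and 26 held 4 or more. These 26 bins held 127 of the regions (40.4%). On chromosome 8 the bin from 22 to 23 Mb was the fullest, with 10 regions, of which 8 held no gene, 8 had a peak in all 4 H3ac lists and 6 a peak in all 8 H3K27me3 lists, and the bin had 21 protein-coding genes. Within 100 kb of another persistent region lay 118 (37.6%), which is why the intervals above are too narrow.

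The 1-Mb bin of a persistent region had a median of 40 protein-coding genes, against 75 for the other joined regions and 79 over all bins. Bins with fewer than 40 protein-coding genes held 155 persistent regions (49.4%, exact interval 43.7 to 55.0), beside 19% of all joined regions. The nearest protein-coding gene was a median of 11.1 kb away, against 2.35 kb for the others, and at most 206 kb. By length, such bins held 30% of the persistent regions under 2 kb, against 17.6% of the others, 34.4% against 32.1% between 2 and 5 kb, 46.0% against 24.1% between 5 and 10 kb, 51.6% against 20.1% between 10 and 20 kb, and 58.9% against 15% at 20 kb and more. Between 2 and 5 kb the shares were nearly equal. Quartiles of their positions lay closest together on chromosome 8, at 19.4 and 22.6 Mb, and farthest apart on chromosome 6, at 17.95 and 31.6 Mb, against chromosome lengths of 49.7 and 42.9 Mb.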

How the data were processed

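Reads were trimmed by the authors (Trim Galore), placed on the MtrunA17r5.0 assembly by STAR where they had 1 place only, and freed of duplicates (Picard). Peaks came from MACS2, each IP library set against its own INPUT, with a p-value threshold of 0.01. The lowest −log10 p of a list was 2.01 to 2.07 for H3ac, near this threshold. For H3K27me3 it was 2.74 to 3.16, and the lowest −log10 q was 1.02 to 1.07, so these lists hold no peak near it. Tool versions are not given in the sources used here. Each deposited peak has a fold enrichment (the ratio of IP over INPUT) and, as −log10, a p-value and a q-value. For H3K27me3 these are averages over broad peaks, and for H3ac the values of narrow peaks. Read depth is not part of the lists. The paper gives the number of clean reads of each library, but these numbers were not used here. How many reads were left after placing and removal of duplicates is not in the lists. A region without a peak may lie just under the threshold.

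Regions, overlaps and covered lengths were computed with Python 3.11.15, NumPy 2.4.6, pandas 2.3.3 and matplotlib 3.10.9, and exact 95% Clopper-Pearson intervals with SciPy 1.17.1. The region functions were tested on simulated data, and 6 of 6 counts equalled those of bedtools 2.31.1. A region held a gene or an H3ac peak on an overlap of at least 1 bp. Genes came from the RefSeq table of the same assembly, with 39280 genes on chromosomes 1 to 8. It has no strand and no product names, so gene families planned for counting (transcription factors, storage proteins and others) were not analysed here. No genome sequence was used. Unplaced contigs were left out.

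Regions to be named were the 5 strongest with a peak in all lists (by the lowest value over the lists), the 5 longest, the 10 strongest with protein-coding genes and no rRNA gene, the 5 strongest without H3ac peaks, 3 on each side of the limit, and those with the highest and lowest mean ratio of 26°C to 20°C. The members and lists were chosen with earlier results of these data known, and the limit of 40 genes per bin came from such work. The alternatives were other numbers of lists, stricter p-values (−log10 p of at least 5) and q-values (at most 0.05), equal numbers of peaks, merging within 1 kb, an overlap of 200 bp, the highest peak in place of the mean, regions without rRNA genes, and each list left out.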

Additional observations from a re-analysis of the deposited data

Results flagged for a closer look

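Among the 11 quantities of 4 lists that were examined for a list far from the others, 2 were picked out, and both point to the H3ac list of S1 at 20°C. Persistent regions held 36.3% of its peak bases, against 53.6 to 57.2% in the other 3 H3ac lists, and 6.63% of its peaks, against 28.5 to 30.5%. The 4 lists are of different conditions, and chance picks out about 1 in 20 such groups. By the read numbers in the paper, the INPUT library of the list picked out had more reads than any other H3ac library. Whether this bears on the list was not tested.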

How the results depend on the processing

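Of 199 values recomputed under 21 alternatives, 162 moved by less than the limits set and 37 by more. A peak in 5, 7 or 8 lists gave 497, 188 and 106 regions, with H3ac overlap of 57.3, 71.8 and 75.5%. With all 8 lists, rRNA genes were in 7.55%, the S4 to S1 log2 ratio at 26°C was −0.051 and the mean share of peak bases at 26°C 22.3%. A −log10 p of at least 5 left 64 regions, 14.1% with rRNA genes and 40.6% with protein-coding genes, and S4 to S1 ratios of 0.22 at 26°C and 0.092 at 20°C. The same number of peaks in every list left 49 regions, with rRNA genes in 14.3%, protein-coding genes in 46.9% and H3ac in 81.6%. The log2 ratios of 26°C to 20°C were then 0.20, 0.44 and 0.33 at S2, S3 and S4, those of S4 to S1 0.59 at 26°C and 0.21 at 20°C, and the mean shares of peak bases 46.1% at 26°C and 34.0% at 20°C. H3ac overlap was 55.0% with a q-value of at most 0.05, 55.7% without the H3ac list of S1 at 20°C and 47.1% with H3ac peaks of a −log10 p of at least 5. In an alternative chosen after seeing the data, a base under 6 or more lists was required, which kept 211 regions.

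Leaving out a list and asking for 6 of the other 7 gave 192 to 247 regions. Counts under 314 by more than 1.5 times came without S3 at 26°C (192), S4 at 26°C (194), S2 at 20°C (207) and S2 at 26°C (209). H3ac overlap spanned 62.4 to 72.5%, protein-coding genes 19.8 to 26.9% and rRNA genes 4.13 to 5.15%. Ratios of 26°C to 20°C spanned −0.04 to 0.01 at S1, 0.33 to 0.37 at S2, 0.26 to 0.27 at S3 and 0.18 to 0.19 at S4. Those of S4 to S1 spanned −0.17 to −0.13 at 26°C and −0.31 to −0.30 at 20°C, and mean shares of peak bases 27 to 33.9% at 26°C and 47.2 to 64.8% at 20°C. The causes of these shifts were not tested, but fewer peaks or lists leave fewer regions by construction. Each condition had 1 library, and the labels give a single replicate number. The stages pair the temperatures, but no paired analysis over them was made. Temperatures were set side by side by stage, with no test, since the same lists chose the regions.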
